A study of Homo sapiens with 8 samples.

Results

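The cytosolic nucleic acid sensors and adaptors are 10 genes, taken by name from a list: RIGI, IFIH1, DHX58, MAVS, TLR3, CGAS, STING1, ZBP1, EIF2AK2 and ADAR. The list was chosen with earlier results of these data known, so its counts of calls beside all tested genes are a description. All 10 were found among the 60675 genes of the count tables. The libraries came from the human pancreatic cancer line Panc10.05 and from Panc10.05R, a derivative that became resistant to indisulam after months of culture in rising doses of it. Indisulam is a molecular glue: it joins RBM39, a splicing factor, to a ubiquitin ligase that holds DCAF15, and RBM39 is then degraded. Parental cells were either untreated or given 2 µM indisulam for 18 h. Resistant cells were either kept on 2 µM indisulam without a break or taken off it for a week, and the latter group is called resistant untreated. Each of the 4 groups had 2 libraries, which the study calls technical replicates, so p-values cover the spread between these libraries and not between independently derived lines. The growth and treatment notes name A549 cells, while titles and cell line field name Panc10.05, which was followed. Treated parental cells met the drug once and treated resistant cells lived on it, so the length of exposure and the line cannot be told apart in a comparison of their responses. Untreated resistant cells had been withdrawn from the drug. A fall or rise on the drug in this line therefore compares cells kept on it with cells after withdrawal. An effect of the drug and an effect of withdrawal cannot be told apart there.

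Cells use these genes to detect DNA or RNA in places where it should not be. RIG-I (the product of RIGI) and MDA5 (IFIH1) bind viral or misplaced double-stranded RNA in the cytosol and signal through the mitochondrial adaptor MAVS, while LGP2 (DHX58) tunes both receptors and TLR3 detects double-stranded RNA in endosomes. Cytosolic DNA is bound by cGAS, whose cyclic dinucleotide product activates the adaptor STING. The other members act on double-stranded or left-handed nucleic acids: PKR (EIF2AK2) phosphorylates the translation factor eIF2, ZBP1 triggers cell death, and ADAR edits adenosine to inosine so that the cell's own double-stranded RNA is not sensed. Several of these genes are themselves induced by interferon, which makes the level of a sensor depend on earlier signalling.

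Between 65266253 and 108002436 reads per library were assigned to genes. Values are given as CPM, a gene's reads relative to the TMM-scaled total of its library, and an error is the SD of 2 libraries. Depth and the counting intervals below cover counting error only, since these reads carry no molecular identifiers. The epithelial origin of the line was checked against markers, and 7 of 8 ductal epithelial markers had a mean of at least 1 CPM. Their summed level was 6329 to 6517 CPM in parental and 10820 to 12250 CPM in resistant libraries. It therefore moved with the line, as did most sensors, and its part in the results was not tested. Summed immune cell markers reached at most 6.22 CPM, with PTPRC and CD3E at 0, fibroblast markers at most 4.05 CPM with DCN and LUM at 0, and endothelial markers at most 0.426 CPM. Most of the immune sum was CSF1R, with group means of 2.92 to 5.49 CPM, and ITGAM reached 1.04 CPM in resistant cells on the drug. Most of the fibroblast sum was COL1A1, with group means of 1.44 to 3.92 CPM. In these bulk libraries fewer expressing cells and less RNA per cell cannot be told apart.

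The main pattern was shared by 7 of the 10 genes. RIGI, IFIH1, DHX58, TLR3, ZBP1, EIF2AK2 and ADAR were higher in resistant untreated cells than in every other group and were lower in resistant cells kept on the drug. STING1 was also higher in the resistant line but was highest on the drug. MAVS and CGAS, the remaining adaptor and DNA sensor, stayed within a narrow range in all groups.

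**Figure D1:**
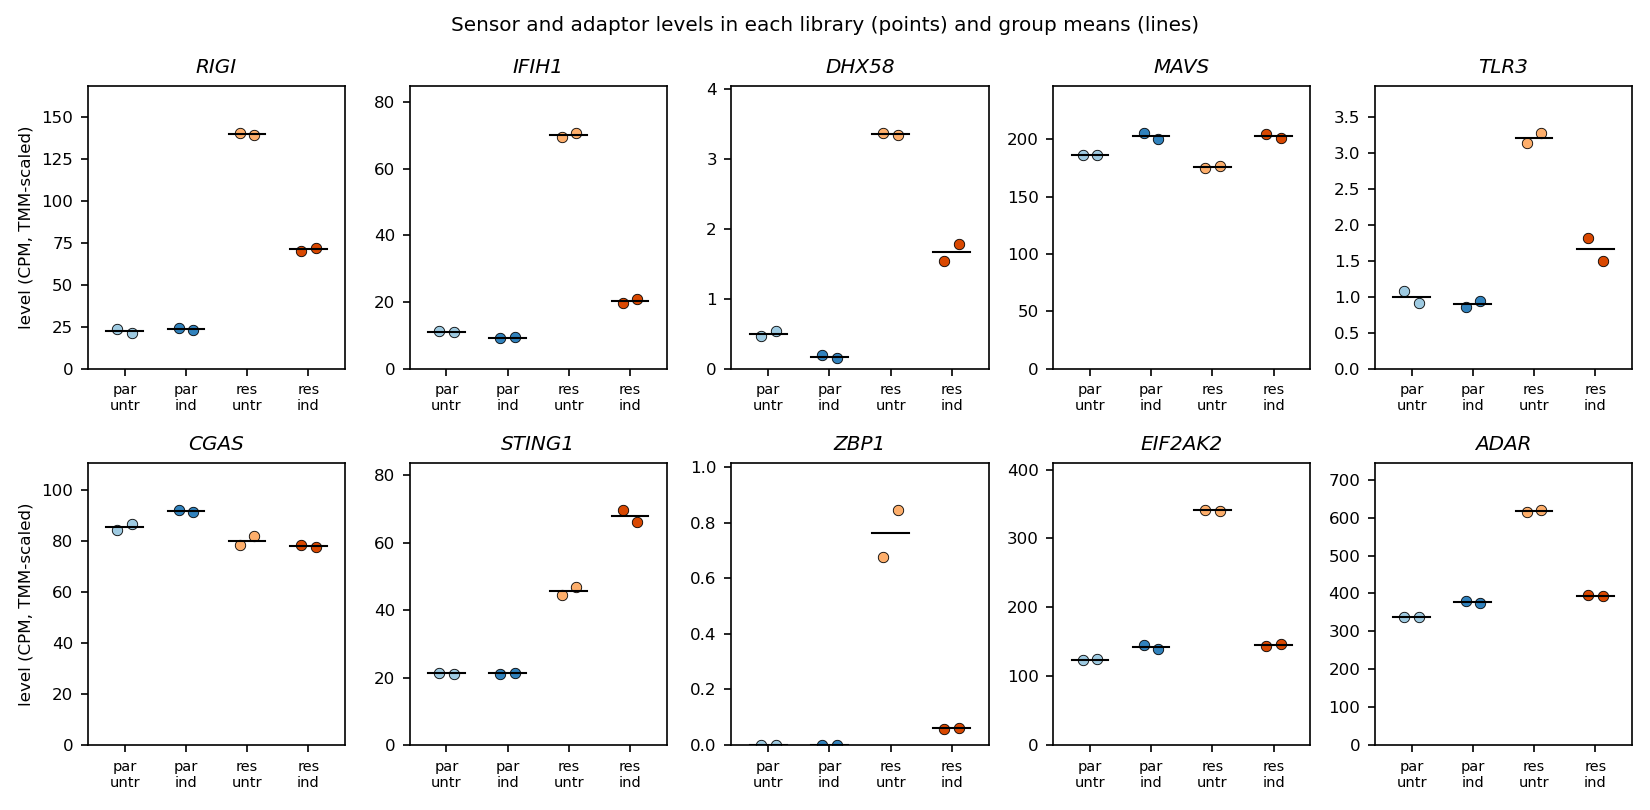
Level of each of the 10 genes (vertical axis, CPM after TMM scaling, starting at 0, a separate scale for each gene) in untreated (untr) and indisulam-treated (ind) libraries of the parental (par) and resistant (res) lines. Points are the 2 libraries of a group and lines their mean. Resistant untreated libraries are highest for 7 genes, STING1 is highest in resistant indisulam libraries, and MAVS and CGAS vary little.

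RIGI (ENSG00000107201, GRCh38 chromosome 9, 32455302 to 32526208, minus strand) was measured at 23.7 and 21.2 CPM in parental cells without and 24.0 and 22.9 CPM with indisulam. Resistant cells had 140.17 and 138.82 CPM off the drug and 70.2 and 71.7 CPM on it. The parental groups overlapped, and both resistant groups lay above them and apart from each other. Off the drug RIGI stood 2.63 log2 units higher in resistant cells (SE 0.041, adjusted p 1.1e-22). On the drug it fell by 0.97 log2 units in the resistant line (SE 0.037, adjusted p 6.1e-15). In parental cells the change was 0.06 (SE 0.046, adjusted p 0.27), with an interval of 2 SE from -0.03 to 0.15, although it was called at 0.14 (adjusted p 0.022) without the first parental untreated library. RIGI shares 43.2% of its exon bases with a second annotated gene on the same strand, ENSG00000288684. That gene is absent from the deposited counts, so no reads were assigned to it. The part of this overlap in the level of RIGI was not tested.

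IFIH1 (ENSG00000115267, chromosome 2, 162267074 to 162318684, minus strand) gave 11.2 and 10.9 CPM in parental cells off the drug and 9.30 and 9.32 CPM on it. The resistant values were 69.6 and 70.8 CPM off and 19.6 and 21.0 CPM on the drug. No groups overlapped. MDA5 transcript was thus higher by 2.67 log2 units in the resistant line off the drug (SE 0.041, adjusted p 1.3e-24) and fell by 1.78 on the drug (SE 0.039, adjusted p 9.0e-21). Of the members with over 100 reads in every library it had the steepest fall. In parental cells it fell by 0.25 (SE 0.052, adjusted p 0.00027).

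DHX58 (ENSG00000108771, chromosome 17, 42101404 to 42112714, minus strand), which encodes LGP2, was the scarcest of the 3 RIG-I-like receptors. Parental libraries held 51 and 57 reads off and 14 and 12 on the drug (0.466 and 0.533, then 0.187 and 0.155 CPM). Resistant libraries held 250 and 217 reads off and 104 and 172 on the drug (3.38 and 3.34, then 1.54 and 1.79 CPM). The 4 groups did not overlap. The gene was higher by 2.75 log2 units in untreated resistant cells (SE 0.14, adjusted p 3.7e-14) and fell on the drug in both lines, by 1.54 in parental (SE 0.26, adjusted p 2.7e-05) and by 1.00 in resistant cells (SE 0.12, adjusted p 3.3e-07). Unlike RIGI and IFIH1 it gave no difference between these falls that passed the test, at 0.54 (SE 0.30, adjusted p 0.14) and an interval of 2 SE from -0.06 to 1.15.

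MAVS (ENSG00000088888, chromosome 20, 3846799 to 3876123, plus strand), the adaptor on which RIG-I and MDA5 converge, lay at 186.01 and 186.67 CPM in untreated and 205.57 and 200.31 CPM in treated parental libraries. In the resistant line it lay at 174.71 and 176.86 CPM off and 204.69 and 201.47 CPM on the drug. It was higher on the drug in both lines, by 0.12 log2 units in parental (SE 0.027, adjusted p 0.00048) and 0.21 in resistant cells (SE 0.028, adjusted p 1.1e-06). With library totals alone in place of TMM the parental value was 0.06 and not called (adjusted p 0.077). Off the drug MAVS was lower in resistant cells by 0.08 (log2 fold change -0.08, SE 0.028, adjusted p 0.011), the opposite sign to its receptors. That call was lost without the first or the second parental untreated library (adjusted p 0.069 and 0.086) or the first resistant untreated library (adjusted p 0.062).

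TLR3 (ENSG00000164342, chromosome 4, 186068911 to 186088073, plus strand), the endosomal double-stranded RNA receptor, had few reads, 64 to 233 per library. Its level was 1.08 and 0.908 CPM in parental cells off and 0.854 and 0.943 CPM on the drug, against 3.15 and 3.28 CPM off and 1.82 and 1.50 CPM on the drug in resistant cells. Only the parental groups overlapped. It was higher by 1.69 log2 units in untreated resistant cells (SE 0.13, adjusted p 6.5e-11) and fell by 0.97 on the drug (SE 0.13, adjusted p 9.0e-07). Parental cells gave a value of -0.14 (SE 0.16, adjusted p 0.47).

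CGAS (ENSG00000164430, chromosome 6, 73413515 to 73452297, minus strand), the cytosolic DNA sensor, had 84.4 and 86.8 CPM without and 92.5 and 91.6 CPM with the drug in the parental line. The resistant line had 78.5 and 82.0 CPM without and 78.4 and 77.8 CPM with it. All 8 values lay between 77.8 and 92.5 CPM. The largest difference was between the lines on the drug, where CGAS was lower in resistant cells by 0.24 (log2 fold change -0.24, SE 0.031, adjusted p 4.1e-07). Indisulam gave 0.11 in parental cells (SE 0.031, adjusted p 0.0052) and -0.04 in resistant cells (SE 0.032, adjusted p 0.32). The parental call was lost with library totals alone (0.04, adjusted p 0.29), among genes with a mean of at least 1 CPM (0.05, adjusted p 0.16), without a filter (0.07, adjusted p 0.078) and without parental indisulam replicate 1 (adjusted p 0.097), parental indisulam replicate 2 (0.053) or parental untreated replicate 1 (0.096). Off the drug the lines differed by -0.09 (SE 0.031, adjusted p 0.013), a call lost without parental untreated replicate 2 (adjusted p 0.16) or resistant untreated replicate 1 (0.17) and with the DESeq2 Wald test (0.072). CGAS shares 180 exon bases with DDX43 on the opposite strand, to which 9.65% of the pair's reads were assigned.

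STING1 (ENSG00000184584, chromosome 5, 139475533 to 139482935, minus strand), the adaptor below cGAS, followed a course of its own. Parental values were 21.3 and 21.1 CPM off and 21.2 and 21.4 CPM on the drug. Resistant values were 44.6 and 46.8 CPM off and 69.8 and 66.0 CPM on it. The parental groups overlapped, and resistant cells lay above them whether on or off the drug. Off the drug STING1 was higher in the resistant line by 1.11 log2 units (SE 0.039, adjusted p 2.3e-17), and on the drug by 1.67 (SE 0.040, adjusted p 9.5e-21). It was higher on than off indisulam by 0.57 in resistant cells (SE 0.037, adjusted p 6.8e-12) and gave 0.01 in parental cells (SE 0.043, adjusted p 0.92).

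EIF2AK2 (ENSG00000055332, chromosome 2, 37099210 to 37157522, minus strand), the gene of PKR, stood at 123.06 and 124.81 CPM in untreated parental cells and at 145.55 and 139.37 CPM after treatment. Resistant cells had 341.99 and 340.36 CPM off the drug and 143.77 and 147.0 CPM on it. The drug-treated groups of the lines overlapped, while the untreated groups stood 1.46 log2 units apart (SE 0.029, adjusted p 2.0e-22). On against off the drug, the gene differed in opposite directions in the lines. It was up by 0.20 in parental cells (SE 0.029, adjusted p 3.0e-06) and down at a log2 fold change of -1.23 in resistant cells (SE 0.029, adjusted p 3.5e-20). EIF2AK2 overlaps GPATCH11 on the opposite strand over 35 exon bases, and 11.1% of the reads of both were those of GPATCH11.

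ADAR (ENSG00000160710, chromosome 1, 154581695 to 154628013, minus strand) was the most abundant member. Parental cells had 337.11 and 336.91 CPM untreated and 378.9 and 376.08 CPM on the drug, and resistant cells 616.25 and 621.45 CPM off and 396.36 and 392.24 CPM on it. Its course resembled that of EIF2AK2: higher by 0.88 log2 units in untreated resistant cells (SE 0.026, adjusted p 9.0e-19), up by 0.16 with the drug in parental cells (SE 0.026, adjusted p 1.2e-05) and a value of -0.65 in resistant cells (SE 0.026, adjusted p 1.5e-15). ADAR makes an interferon-inducible and a constitutive protein form, and the gene counts do not separate their transcripts.

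ZBP1 (ENSG00000124256, chromosome 20, 57603846 to 57620576, minus strand), the sensor of left-handed nucleic acids, had 0 reads in all 4 parental libraries. A count of 0 there allows up to 3 reads per library. Resistant cells off the drug held 50 and 55 reads (0.675 and 0.847 CPM), and those on it 4 and 6 reads (0.0593 and 0.0624 CPM). ZBP1 was thus at least 27.4-fold higher in resistant than in parental untreated cells, with 3 counts per library as the floor, and at least 1.55-fold higher between the lines on the drug. Within the resistant line the ratio of untreated to drug-treated reads, scaled for depth, was 12.4 (95% exact interval 6.46 to 26.5, counting error only). The fit gave -3.60 log2 units (SE 0.36). The gene passed the filter on low counts through the resistant untreated libraries, so it had to differ between groups. For that reason no p is given for it and its calls are not read as support. Counts over members are therefore also given without it.

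Off the drug, 8 of the 10 members were called higher in resistant than in parental cells and 2 lower (7 and 2 without ZBP1), against 30.3% of all 16661 tested genes called higher and 29.9% lower. Of the members, 7 (6 without ZBP1) rose by more than 1 log2 unit, which 6.93% of tested genes did. The median over the 9 members other than ZBP1 was 1.46 log2 units and that over all genes was -0.02. With ZBP1 at its bound the median was 1.58. RIGI, IFIH1 and DHX58 differed between the lines by similar sizes, 2.63 to 2.75 log2 units, while the adaptors differed from them and from one another, MAVS at -0.08 and STING1 at 1.11.

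Within the resistant line, 7 members were called lower on indisulam than after withdrawal from it and 2 higher (6 and 2 without ZBP1). Of tested genes 25.8% were called lower and 24.9% higher. IFIH1 and EIF2AK2, besides ZBP1, fell by more than 1 log2 unit, as did 1.46% of tested genes. The median of the 9 members was -0.97 and that of all genes 0.01. STING1 and MAVS, both adaptors, were the pair that rose, and CGAS was not called. When library totals alone replaced TMM the members' split was the same, although the share of all called genes that were higher went from 49.1% to 59.7%.

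In parental cells the 18 h exposure gave 4 members higher and 2 lower, where 31.6% of tested genes were called higher and 26.6% lower. EIF2AK2, ADAR, MAVS and CGAS rose by at most 0.20 log2 units, and DHX58 and IFIH1 fell. Only DHX58 fell by more than 1 log2 unit, as 5.47% of tested genes did. The median of the 9 members was 0.06. With library totals alone 2 members were higher and 2 lower, and the share of all called genes that were higher went from 54.3% to 42.0%.

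**Figure D2:**
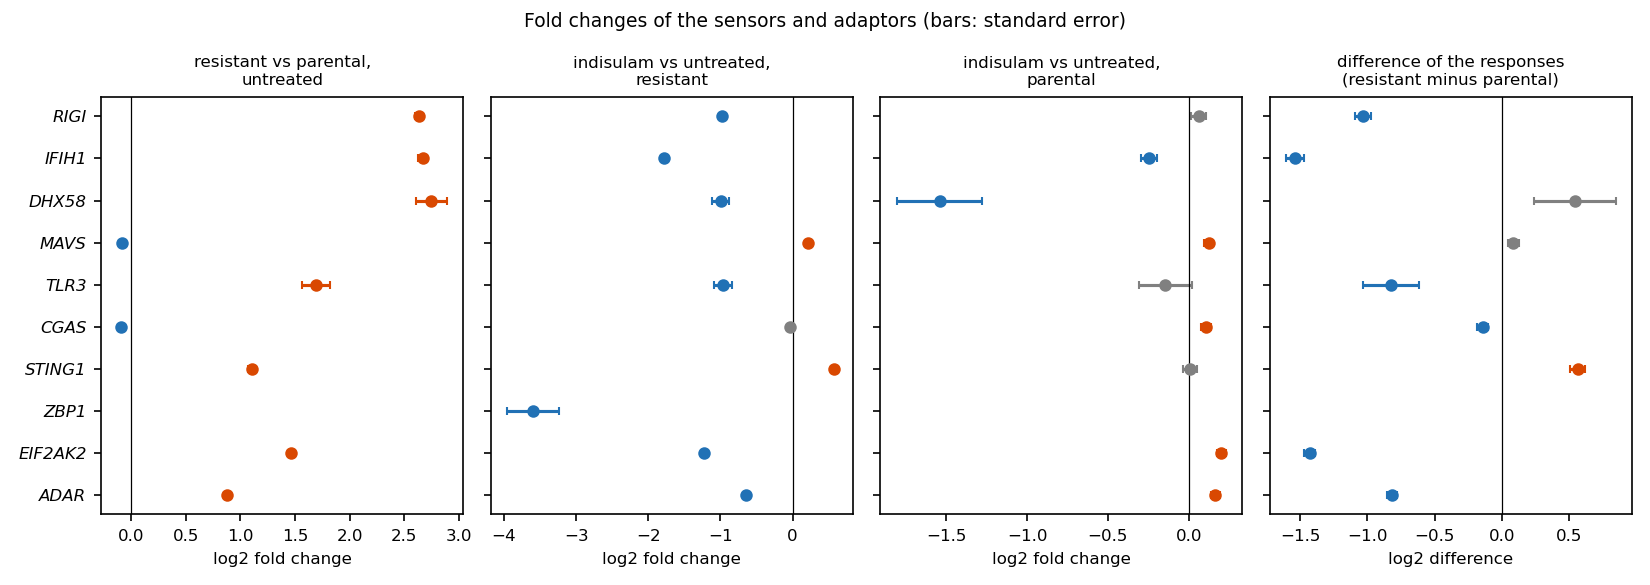
Log2 fold changes (horizontal axes, each panel with its own scale) of the 10 genes in 3 comparisons and, at the right, the difference of the drug responses between the lines. Bars are the standard error, orange and blue points were called higher and lower, and grey points were not called. ZBP1 is drawn only where both groups had reads. The RIG-I-like receptors sit between 2.63 and 2.75 in the untreated comparison, while MAVS and CGAS lie just below 0.

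The drug responses of the lines were then compared in the same fit. The difference (resistant minus parental) was called negative for 6 members and positive for 1, where 27.5% of tested genes were called negative and 22.7% positive. IFIH1, EIF2AK2 and RIGI were past 1 log2 unit at -1.54, -1.43 and -1.04, as were 0.774% of tested genes. ADAR at -0.81 and TLR3 at -0.82 (adjusted p 6.5e-14 and 0.0022) followed. STING1 had the one positive difference called, 0.57 (SE 0.056, adjusted p 2.7e-08). CGAS at -0.14 (adjusted p 0.0089) was the least secure, since the call was lost with library totals alone (-0.03, adjusted p 0.61), among genes with a mean of at least 1 CPM (-0.06, adjusted p 0.25) and without each of 4 libraries, parental indisulam replicate 1, parental untreated replicate 1, resistant indisulam replicate 2 and resistant untreated replicate 2 (adjusted p 0.058, 0.067, 0.061 and 0.079). MAVS gave 0.09 (adjusted p 0.074) and was called without parental indisulam replicate 1, resistant indisulam replicate 2 or resistant untreated replicate 2 (adjusted p 0.033, 0.039 and 0.039), at 0.20 with library totals alone (adjusted p 0.00021) and at 0.17 among genes with a mean of at least 1 CPM (adjusted p 0.00098). No difference can be fitted for ZBP1, which had no parental reads. Library totals alone shifted the median of all genes in this comparison by 0.12 log2 units, after which 5 members were negative and 2 positive and the share of all calls that were positive went from 45.2% to 65.8%.

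**Figure D3:**
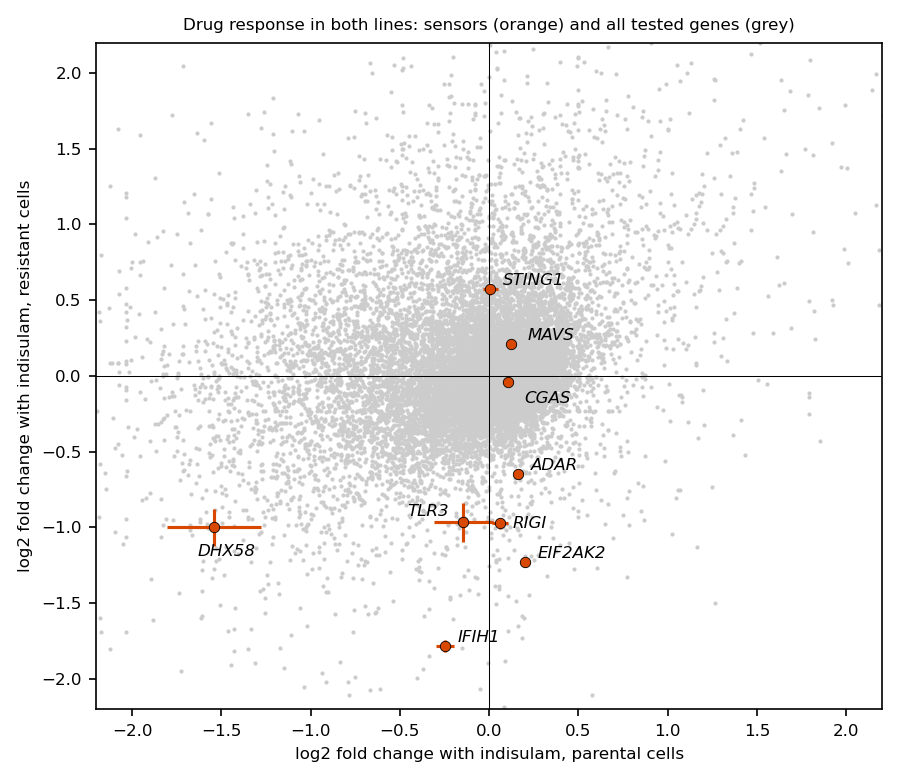
Log2 fold change with indisulam in parental cells (horizontal axis) against that in resistant cells (vertical axis). Grey points are all tested genes inside the axis limits of 2.2 log2 units, and orange points with standard error bars are the 9 members other than ZBP1, which had no parental reads. IFIH1, EIF2AK2, RIGI, TLR3 and ADAR lie far below 0 on the vertical axis and near 0 on the horizontal one, DHX58 is low on both, and STING1 lies above 0 on the vertical axis alone.

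On the drug, the lines differed less for most RNA sensors and more for STING1. Here 7 members were called higher in resistant cells and 1 lower (6 and 1 without ZBP1), against 34.6% and 34.9% of tested genes, and 4 other than ZBP1 were higher by more than 1 log2 unit, as were 12.4% of tested genes. The bound for ZBP1 here is under 1 log2 unit. DHX58 kept a difference of 3.29 log2 units (SE 0.22, adjusted p 2.2e-12), STING1 1.67, RIGI 1.60 (SE 0.043, adjusted p 2.3e-18), IFIH1 1.13 (SE 0.049, adjusted p 1.1e-15) and TLR3 0.87 (SE 0.16, adjusted p 3.2e-05). The large DHX58 value rests on the low parental indisulam libraries of 14 and 12 reads. ADAR differed by 0.06 (SE 0.026, adjusted p 0.039). Leaving out parental untreated replicate 1 or 2 or resistant indisulam replicate 1 or 2 ended that call (adjusted p 0.090, 0.090, 0.14 and 0.056). EIF2AK2 gave 0.03 (SE 0.029, adjusted p 0.37), and was called at 0.12 with library totals alone (adjusted p 0.0013). MAVS gave 0.00 (SE 0.027, adjusted p 0.98) and was called at 0.09 with library totals alone (adjusted p 0.0062). That scaling also moved the share of all calls that were higher from 49.8% to 59.7%. With ZBP1 at its bound the median of the members was 0.75 log2 units.

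Resistant cells on the drug were also set against untreated parental cells. In this comparison 9 members were called higher and 1 lower (8 and 1 without ZBP1), against 32.2% and 32.6% of tested genes, and 3 other than ZBP1, whose bound was 2.19-fold, were past 1 log2 unit, as were 9.22% of tested genes. DHX58 was higher by 1.75 log2 units, STING1 by 1.68, RIGI by 1.66 and IFIH1 by 0.88, whereas ADAR and EIF2AK2 were each higher by 0.23. These comparisons share libraries with those above, so their values are given side by side and not as separate evidence.

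The order of the members was read per length, as RPKM, which is CPM divided by the summed exon length of the gene in kilobases. In parental untreated cells ADAR (27.5), CGAS (20.5), MAVS (15.8) and EIF2AK2 (11.2) led, followed by STING1 at 4.42 RPKM. RIGI (2.17 ± 0.169) and IFIH1 (2.11 ± 0.0480) did not differ beyond their spread on this length, nor did TLR3 (0.132 ± 0.0161) and DHX58 (0.131 ± 0.0125). In resistant untreated cells ADAR stood at 50.6 and EIF2AK2 at 30.9 RPKM, above CGAS at 19.2, and RIGI (13.5 ± 0.0923) and IFIH1 (13.4 ± 0.150) again lay within their spread on this length. DHX58 (0.878), TLR3 (0.429) and ZBP1 (0.141) closed the order. Resistant cells on the drug had STING1 at 14.2 RPKM above EIF2AK2 at 13.2. The order depends on the length used. With the length of the MANE Select transcript, an alternative added after the data were seen, RIGI and IFIH1 parted, at 4.86 and 3.08 RPKM in parental untreated and 30.1 and 19.6 RPKM in resistant untreated cells. RIGI then lay above CGAS at 25.1 in the latter group, while ADAR (93.6) and EIF2AK2 (34.2) stayed at the top. In resistant cells on the drug STING1 at 31.3 RPKM then came next after ADAR at 59.7, above CGAS and MAVS, and TLR3 and DHX58 changed places in parental untreated cells.

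For each member, the tested genes with the most similar profile across the 8 libraries were listed, by Pearson's r of log2 CPM among genes with a mean of at least 1 CPM. The libraries share 4 groups, so high values are common and no p is given. RIGI was closest to SDC4, AMIGO2 and EPSTI1 (r 0.999 for each). IFIH1 was closest to OAS3, ZNFX1 and NIPAL2, and EIF2AK2 to BTN3A2, MCM4 and PLPP2. ADAR was closest to TRIM25, an E3 ligase of the RIG-I pathway, at 0.997, then ATOX1 and EIF2AK2 itself at 0.994. ZBP1 was closest to PARP9 (0.999), NRP1 and BTN3A3, and TLR3 to SMIM22, AARS1 and MYD88, of which MYD88 is the adaptor of most other Toll-like receptors (0.991). STING1 was closest to NUAK2, CD24 and ATP9A, DHX58 to P3H4, LARGE2 and ASAP2, MAVS to HMOX1 (0.996), LTBR and ZNF428, and CGAS to PSPN (0.989), DNAJC24 and ZNHIT1. Among the members themselves the highest values were 0.996 for IFIH1 with ZBP1 and 0.994 for EIF2AK2 with ADAR, and STING1 with CGAS gave -0.881. ZBP1 had no reads in parental libraries and few in resistant cells on the drug. All its r values, that with PARP9 included, therefore rest mainly on the resistant untreated libraries.

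Because 7 members moved together, their promoters were searched for motifs of the interferon pathway. RefSeq windows (GRCh38.p14, 250 bases before to 50 after each annotated start) were found for 6 of the 10 members in 8 windows, ADAR having 3 starts. The interferon-stimulated response element (ISRE) core was searched as GAAANNGAAA and the STAT site as TTCNNNGAA, each on both strands. The ISRE core was in 3 of the 6 members, IFIH1, EIF2AK2 and TLR3. By window it was in 3 of the 8 member windows and in 3.57% of all 35116 windows. The STAT site was in TLR3 alone, 1 of the 8 member windows, and in 7.66% of all windows. RIGI, MAVS and ADAR had no match to these letters. A match describes the sequence and was not tested as a site. The matches are shown because they lie in genes that rose in the resistant line, each with flanking bases on the gene's strand and the motif in capitals.

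EIF2AK2, 6 bases before to 4 after the start, chr2:37156967-37156996, minus strand: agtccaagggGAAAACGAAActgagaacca
IFIH1, 159 to 150 bases before the start, chr2:162318824-162318853, minus strand: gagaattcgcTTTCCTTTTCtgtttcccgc
IFIH1, 153 to 144 bases before the start, chr2:162318818-162318847, minus strand: tcgctttcctTTTCTGTTTCccgcggtgtc
IFIH1, 21 to 12 bases before the start, chr2:162318686-162318715, minus strand: gaagagaatcGAAACAGAAAccaaagtcag
TLR3, 4 bases before to 6 after the start, chr4:186069142-186069171, plus strand: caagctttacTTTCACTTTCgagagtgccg
TLR3 STAT site, 178 to 170 bases before the start, chr4:186068968-186068997, plus strand: ctgtgaccctTTCAATGAAatccaaggatc
TLR3 STAT site, 50 to 42 bases before the start, chr4:186069096-186069125, plus strand: ccctttgcccTTCTTGGAAtgcaccaaaca

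The first and second IFIH1 matches overlap and share bases. The ISRE core lay near the start in IFIH1, EIF2AK2 and TLR3. Their differences between the drug responses were -1.54, -1.43 and -0.82 log2 units. The members with a window and no match, RIGI, ADAR and MAVS, were at -1.04, -0.81 and 0.09, the last not called. DHX58, CGAS, STING1 and ZBP1 had no window. A relation of the motif to the responses was not tested.

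**Figure D4:**
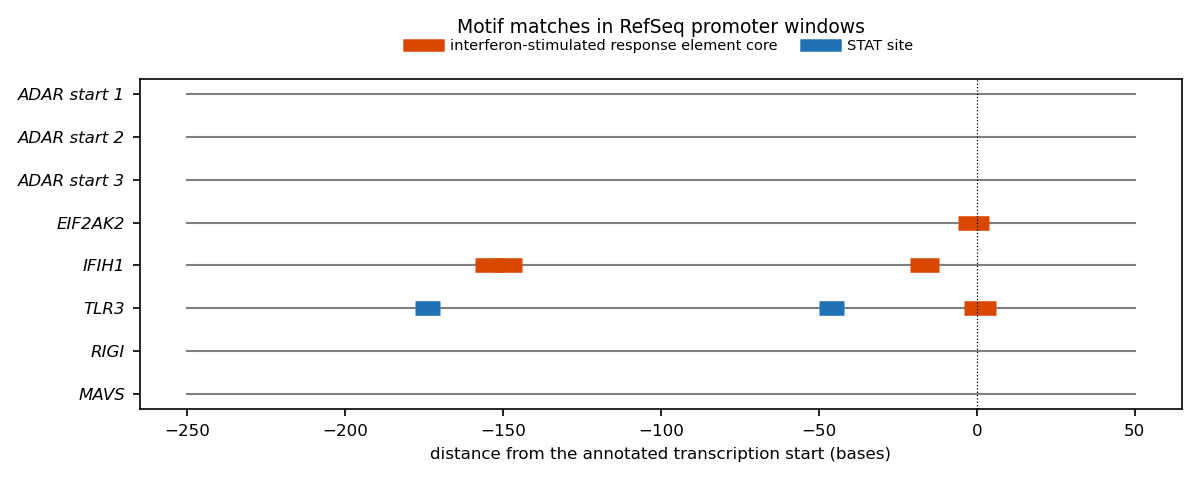
Positions of the ISRE core (orange) and of the STAT site (blue) in the RefSeq promoter windows of 6 members, as distance from the annotated start in bases, from 250 before to 50 after. Grey lines are the windows. IFIH1 has 3 ISRE matches, EIF2AK2 and TLR3 have 1 each at the start, and TLR3 has 2 STAT matches.

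The other genes of the sensing pathways were taken from 8 lists of 109 genes, of which 90 were tested. Off the drug 40 were called higher in resistant cells (38 without AIM2 and NLRP1) and 25 lower, beside 30.3% and 29.9% of all tested genes, and the median was 0.04 log2 units. Genes named in the next paragraphs came from the naming rule of the largest changes, except MLKL, those that spell out counts of 5 or fewer and those with few reads, which were named after their values were seen. On the drug 22 were called higher (20 without AIM2 and NLRP1) and 49 lower, beside 34.6% and 34.9% of all tested genes. With library totals alone 30 were higher and 37 lower. Indisulam gave 43 higher and 14 lower in parental cells (32 and 20 with library totals alone), beside 31.6% and 26.6% of all tested genes. The resistant line gave 20 higher and 38 lower (37 without AIM2 and NLRP1), beside 24.9% and 25.8%. Under that scaling it gave 27 and 30. The differences of the responses were positive for 10 and negative for 49 genes, beside 22.7% and 27.5%, with a median of -0.17. With library totals alone they were positive for 19 and negative for 26.

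Among other nucleic acid sensors, IFI16, a DNA sensor of the nucleus and cytosol, had 4.59 ± 0.151 CPM in parental cells off and 5.13 ± 0.476 CPM on the drug, and 67.1 ± 0.0974 CPM off and 21.3 ± 0.340 CPM on it in resistant cells (SD, n = 2). It was higher by 3.87 log2 units off the drug (SE 0.049, adjusted p 2.8e-26) and its resistant response was -1.65 (SE 0.041, adjusted p 8.2e-20), the course of RIGI and IFIH1. AIM2, the inflammasome DNA sensor, had 0 to 2 reads in each parental library, but 67 and 66 reads in resistant cells off and 37 and 57 reads on the drug. NLRP1, an inflammasome sensor, had 7 and 11 reads off and 2 and 3 on the drug in the parental line, and 78 and 107 off and 97 and 123 on it in the resistant line. AIM2 and NLRP1 are scarce in parental cells and passed the filter through the resistant libraries. Of the 15 tested genes of this list 8 (6 of 13 without AIM2 and NLRP1) were called higher off the drug, beside 30.3% of all tested genes. Called lower were 2 (DDX3X at -0.09 and LRRFIP1 at -0.07), beside 29.9%. With indisulam in resistant cells 1 was called higher (DDX3X at 0.09) and 9 lower (8 without AIM2), beside 24.9% and 25.8% of all tested genes.

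The regulators of the RIG-I-like receptors held 10 higher and 3 lower of 15 off the drug, beside 30.3% and 29.9% of all tested genes. DDX60, a helicase linked to RIG-I signalling, was at 35.0 ± 2.00, 21.0 ± 1.62, 167.8 ± 2.95 and 97.6 ± 3.30 CPM in the same order and was higher by 2.26 log2 units off the drug (SE 0.045, adjusted p 5.5e-16). It fell by 0.74 log2 units in parental cells (SE 0.052, adjusted p 1.1e-08). ZC3HAV1, the zinc-finger antiviral protein, was higher by 1.13 (SE 0.029, adjusted p 3.5e-20), and CYLD, a deubiquitinase that restrains RIG-I, was lower (-0.54, SE 0.035, adjusted p 1.5e-12), as were RNF125 (-0.34) and PPP1CC (-0.13).

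Of 14 tested genes that carry the signal onward below the sensors, 4 were called higher and 5 lower off the drug, against 30.3% and 29.9% of all tested genes. Scaling by library totals alone gave 3 called higher and 7 lower. None passed 1 log2 unit. IKBKE, a kinase close to TBK1, was higher by 0.60, and TANK, AZI2 and IKBKG by 0.16 to 0.17. TRAF2, TRAF6 and IRF3, the transcription factor activated by TBK1, were lower (-0.33, -0.15 and -0.14), beside TICAM1 and CHUK. TICAM1, the adaptor of TLR3, was at 28.3 ± 0.129, 29.3 ± 1.98, 19.5 ± 0.838 and 22.7 ± 0.231 CPM, so it was lower in untreated resistant cells (log2 fold change -0.53, SE 0.046, adjusted p 4.4e-10) where TLR3 was higher. TBK1, the kinase that MAVS and STING share, rose by 0.55 log2 units in parental cells on the drug (SE 0.031, adjusted p 1.0e-12), from 53.3 ± 0.288 to 77.9 ± 0.181 CPM. CHUK, a kinase of the NF-kB pathway, was lower off the drug (-0.51, adjusted p 1.0e-12). IRF7, the transcription factor that amplifies interferon, was below the filter with 6 reads in all 8 libraries together. Whether the counting, whose strand setting and annotation are not known, had a part in this was not tested.

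Among STING regulators, 6 of 14 were called higher and 5 lower off the drug, beside 30.3% and 29.9% of all tested genes. STIM1, which holds STING in the endoplasmic reticulum, was higher by 1.12 log2 units (SE 0.034, adjusted p 1.3e-18), and TRIM32, a ubiquitin ligase of STING, was lower (-0.68, SE 0.040, adjusted p 3.4e-13), as were ENPP1, which degrades the cGAS product (-0.38), TMEM203, SURF4 and RNF5. On indisulam 8 were called lower in resistant cells, where 25.8% of all tested genes were. Called higher was 1, ZDHHC1, from 19 and 9 to 35 and 42 reads, where 24.9% of all tested genes were. Library totals alone left 5 of this list called lower and 2 higher there.

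Of 13 tested genes that remove the cell's own nucleic acids, 5 were called higher and 6 lower off the drug, beside 30.3% and 29.9% of all tested genes. Those higher were SAMHD1, PNPT1 at 0.76, RNASET2 at 0.74, LSM11 at 0.40 and RNASEH2B at 0.15. SAMHD1, a dNTP hydrolase, was at 56.8 ± 0.288, 83.0 ± 1.57, 199.2 ± 0.962 and 105.2 ± 1.05 CPM. It was higher by 1.81 log2 units off the drug (SE 0.029, adjusted p 3.6e-24), rose by 0.55 in treated parental cells (adjusted p 7.3e-13) and had a response of -0.92 in resistant cells (adjusted p 7.4e-18), so the directions in the lines were opposite, as for EIF2AK2 and ADAR. PNPT1, a mitochondrial RNA exonuclease, had a response of -0.95 in resistant cells (SE 0.031, adjusted p 1.9e-17). XRN1, a cytoplasmic RNA exonuclease, rose by 0.54 there (SE 0.053, adjusted p 6.6e-07). SUPV3L1, a mitochondrial RNA helicase, was lower in resistant cells on the drug than in parental cells on it (-0.64, SE 0.034, adjusted p 3.5e-14) or untreated (-0.59, SE 0.033, adjusted p 1.2e-13).

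In the PKR and eIF2 list 11 of 14 tested genes (10 with library totals alone) were called higher with indisulam in parental cells, where 31.6% of all tested genes were. In resistant cells 4 were called higher (PPP1R15A, EIF2AK3, EIF2B1 and STAU1) and 5 lower, beside 24.9% and 25.8% of all tested genes. NPM1, EIF2S1, EIF2AK4 and EIF2S2 were among the latter, at -0.24 to -0.09. Library totals alone left 6 called higher and 3 lower there. PPP1R15A, which directs dephosphorylation of eIF2, rose in both lines, by 0.48 in parental (SE 0.027, adjusted p 1.3e-12) and 0.58 in resistant cells (SE 0.028, adjusted p 3.7e-14). Of the ZBP1 partners in cell death 4 of 5 were tested. Off the drug 2, RIPK1 at 0.13 and CASP8 at 0.11, were called higher and none lower, beside 30.3% and 29.9% of all tested genes. MLKL, the executor of necroptosis, fell with indisulam in both lines (-0.18 in parental and -0.36 in resistant cells). RIPK3, the kinase through which ZBP1 starts necroptosis, had 0 reads in all 8 libraries, which allows up to 3 reads in each. Other listed genes, among them TREX1 of the self nucleic acid list, had 0 reads in all libraries as well. The strand setting and annotation of the counting are not known, and their part in these zeros was not tested.

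**Figure D5:**
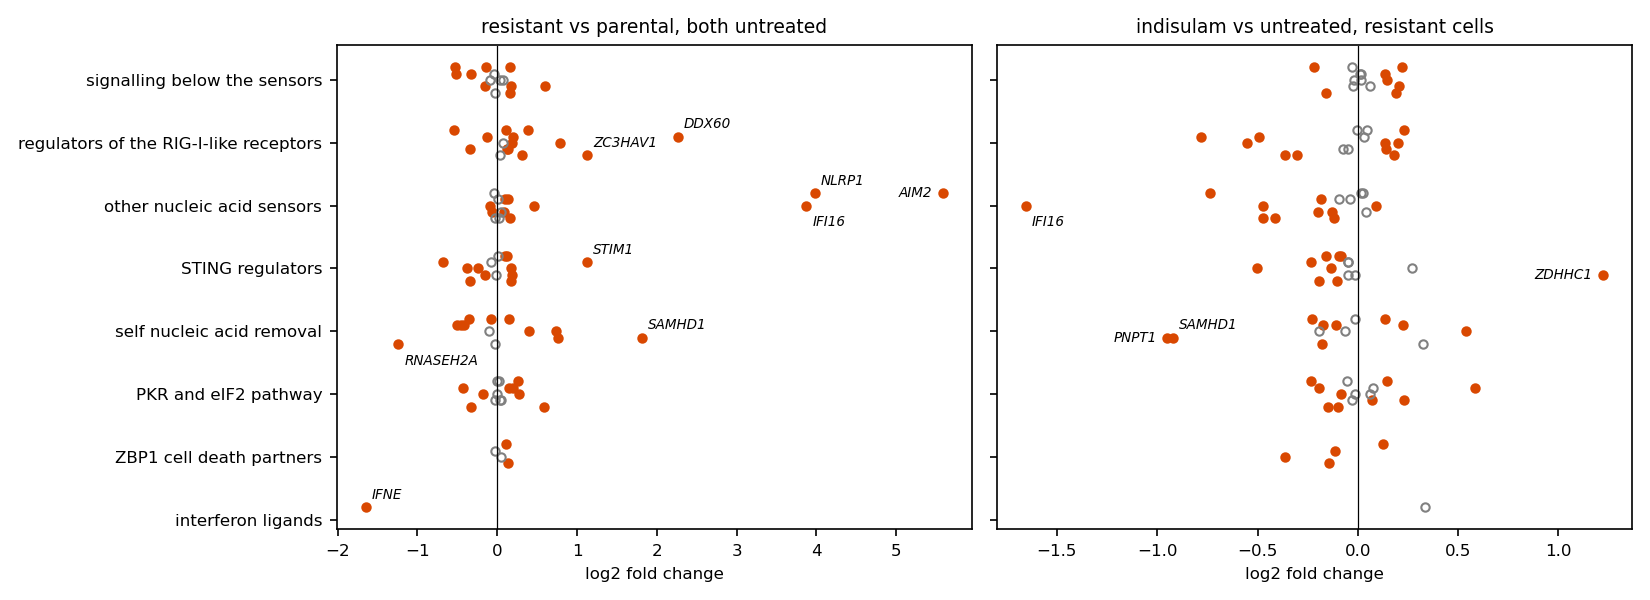
Log2 fold change (horizontal axes) of the tested pathway genes by list, off the drug between the lines at the left and with indisulam in resistant cells at the right. Filled orange points were called and open grey points were not, and small vertical offsets only separate the points. Most points lie near 0. At the left IFI16 (3.87), DDX60 (2.26) and SAMHD1 (1.81) stand apart with AIM2 and NLRP1, which had few reads, and at the right IFI16 lies lowest at -1.65.

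Interferon ligands were scarce. Of 9 ligands only IFNE, an epithelial type I interferon, passed the filter, with 229 and 236 reads off and 76 and 85 on the drug in parental cells, and 46 and 49 off and 61 and 80 on it in resistant cells. It was lower in resistant cells off the drug (log2 fold change -1.65, SE 0.15, adjusted p 1.4e-09) and fell by 1.02 log2 units in parental cells given the drug (SE 0.14, adjusted p 8.2e-07). IFNB1 had 0 reads in 3 parental libraries and 1 in the other, and in resistant cells 9 and 5 reads off and 2 and 5 on the drug. IFNL1 had 2 and 1, 0 and 0, 12 and 8, and 5 and 8 reads in parental untreated, parental treated, resistant untreated and resistant treated libraries. IFNB1 and IFNL1 were too low to be tested, and the rest of the list had 0 to 4 reads in all libraries together.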

How the data were processed

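RNA was sequenced in 8 libraries, with 2 in each of the 4 groups that the sample titles give. The authors deposited raw read counts per gene. Their libraries were stranded and made from polyadenylated RNA, and after trimming by SeqPurge the paired-end reads were aligned to GRCh38 with HISAT2 2.2.1. Picard and HTSeq are named in the submitters' processing notes. The strand setting and the annotation release of the counting were not given in the sources used here, so reads of overlapping genes may have been split by rules not known here. Of each table, 9 closing lines that name no gene, holding 37.9 to 44.9% of all reads and including those marked as duplicates, were left out.

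Symbols and positions came from GENCODE 44, which matched 60419 of 60675 identifiers. Counts were filtered with filterByExpr, which left 16661 genes, scaled with TMM and fitted with the quasi-likelihood model of edgeR 4.0.16 (R 4.3.3, robust, 4 group means, 4 residual degrees of freedom). A gene was called when its p, adjusted over all tested genes by Benjamini-Hochberg, was under 0.05. The standard error is the log2 fold change divided by the square root of F. The 9 members other than ZBP1 passed the filter with reads in all libraries. With 2 libraries against 2 the smallest two-sided p of an exact permutation test is 0.333, and none was used. The code was tested on simulated counts.

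The 10 members and the pathway lists were chosen with earlier results of these data known. Named were the members, the 3 pathway genes with the largest rise and fall called in each comparison (5 off the drug) at a mean of at least 1 CPM, and the 3 genes most alike to each member. Exceptions are marked. The alternatives concerned scaling (library totals alone, size factors of DESeq2 1.42.0), the test (the Wald test of DESeq2, a threshold of 0.01, a test against 0.5 log2 units, the replicate number as a block, only the groups compared), the genes kept (other filters, no abundant or mitochondrial genes) and the libraries (each omitted once). Plots used matplotlib 3.10.9 and Python 3.11.15.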

Additional observations from a re-analysis of the deposited data

Results flagged for a closer look

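The drug responses of the lines differed by a test of the difference itself, in the quasi-likelihood fit of edgeR, for 7 members, given as resistant minus parental in log2 units: RIGI at -1.036, IFIH1 at -1.539, TLR3 at -0.823, CGAS at -0.144, STING1 at 0.566, EIF2AK2 at -1.431 and ADAR at -0.814. EIF2AK2 and ADAR were called in opposite directions in the lines, up in parental and down in resistant cells. The other genes of the pathway lists that the naming rule picked for this comparison were IFNE at 1.359, IRF3 at 0.365, NLRX1 at 0.212, IFI16 at -1.815, SAMHD1 at -1.469 and PNPT1 at -0.965. Exposure was 18 h in parental cells and continuous in resistant cells, whose untreated group had been withdrawn from the drug. Line, length of exposure and withdrawal therefore cannot be told apart in any of these differences. No group had the 4 libraries that a check for single outlying libraries needs.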

How the results depend on the processing

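Each result was recomputed with the alternatives listed for the processing. Of the counts of called members and pathway genes, 205 of 214 recomputed values lay within 1.5 times the reported ones. The other 9 came from the test against 0.5 log2 units, which by its construction leaves out small changes. Under it 1 member was called for indisulam in parental cells, 5 for resistant cells on the drug against untreated parental cells and 4 for the difference of the responses. Pathway genes called under it numbered 2 for indisulam in parental and 5 in resistant cells, 15 between the lines off the drug, 12 on the drug, 11 for resistant cells on the drug against untreated parental cells and 6 for the difference of the responses.

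Leaving out each library in turn gave 5 to 6 called members for indisulam in parental cells, 9 in resistant cells, 8 to 10 between the lines off the drug, 7 to 8 on the drug, 10 for resistant cells on the drug against untreated parental cells and 6 to 7 for the difference of the responses. For pathway genes these ranges were 49 to 56, 50 to 58, 59 to 67, 67 to 70, 64 to 69 and 50 to 58. A mean CPM of at least 1 removed ZBP1, and MAVS and EIF2AK2 were then called between the lines on the drug (0.08 and 0.11 log2 units), the MAVS difference of the responses was called and both CGAS drug calls, in parental cells and in the difference, were lost. No called log2 fold change of a member changed sign under any alternative, while 46 fell short of the threshold and 10 passed it, most of them of MAVS, CGAS and ADAR or under the test against 0.5 log2 units.

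Deviations of same-numbered libraries from their group means correlated at -0.058 to 0.0272 over 6 pairs of groups, so the numbers do not pair the libraries. With the replicate number as a block 6, 9, 10, 7, 10 and 7 members were called in the order above, and the ADAR difference on the drug (adjusted p 0.051) was lost. Depth limits DHX58, TLR3, ZBP1, AIM2 and the interferon ligands, and 2 technical replicates per group limit all results.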
